A study of Mus musculus with 6 samples.

Results

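The D-type cyclins Ccnd1, Ccnd2 and Ccnd3, their kinases Cdk4 and Cdk6, and the transcription factor genes Myc, Mycn, Max and Mxd4 were read in the fornical conjunctival epithelium of E14.5 mouse embryos. In KO embryos the FGF receptor gene Fgfr2 was targeted for conditional deletion in the ocular surface ectoderm, and in WT embryos it was not. The 9 genes were fixed by name, and every probe that the array annotation assigns to them was used. They have 20 probes among the 45281 on the array, and 9 of 19057 genes with a symbol. A filter that kept probes with a detection p-value below 0.05 on at least 3 of the 6 arrays, whatever their group, passed 19 of the 20 probes and at least 1 probe of each of the 9 genes.

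KO embryos were Fgfr2 fx/fx and carried Le-Cre, a Cre transgene driven by a Pax6 regulatory sequence and active in the ocular surface ectoderm; WT embryos were wild type. Both groups had a mixed FVB and 129 background, with 3 embryos and 1 Illumina BeadChip array per embryo, all on 1 slide. Only KO embryos carried Le-Cre, so its own effect and the loss of Fgfr2 cannot be told apart. The tissue label is conjunctival epithelium, while the extraction text of the same samples speaks of lens tissue. The arrays carried 34.6% ± 0.32 detected probes in KO and 49.5% ± 1.0 in WT (SD, n = 3 each), a difference of -15.0 percentage points (two-sided exact permutation p = 0.1, which no split of 3 and 3 arrays can go under). Of the 4 Fgfr2 probes, the brightest read 12.11, 12.34 and 12.30 in KO and 12.16, 11.97 and 12.15 in WT (log2 intensity). The other Fgfr2 probes differed in direction: ILMN_2646078 was undetected on all KO arrays and at least 1.13-fold lower in KO (limma adjusted p = 0.28), ILMN_2609887 was at 0.86 (KO minus WT, log2; adjusted p = 0.28) with all KO above all WT values, and ILMN_1229167 was at 0.68. Which exons the floxed allele loses is not stated, so these readings do not check the labels. All 11 surface epithelium markers, Krt5, Krt14, Cdh1, Epcam, Trp63 and Pax6 among them, were detected on all arrays of both groups. The summed intensity of 11 periocular mesenchyme markers was 4265 to 6909 in KO and 687 to 758 in WT. Of these 11 genes, 6 passed as higher in KO (limma adjusted p below 0.05), against 0.826% of all tested items. KO values lay above all WT values for 9 of the 11, against 11.3% of all tested items. Both counts include Prrx1 and Ogn, which met the detection filter through their KO arrays alone, so these calls are not independent of the filter. The summed intensity of 6 erythroid markers was 5118 to 5519 in KO and 648 to 856 in WT. Of these, 3 globin genes (Hba-a1, Hbb-y and Hbb-b2) passed as higher in KO, against 0.826% of all tested items. Hba-x and Alas2 overlapped between groups, and Hbb-bh1, detected on 1 KO array, was not tested. For leukocyte markers the sum was 128 to 807 in KO and 339 to 615 in WT. Tyrobp, Mrc1 and Cx3cr1 of that list were undetected on all KO arrays, and Csf1r on all WT arrays. Melanocyte and neural crest markers summed to 313 to 384 in KO and 388 to 521 in WT. Endothelium markers, of which 0 were tested, summed to 137 to 155 and 106 to 110. The part of these other cells in the results on the cyclin and Myc genes was not tested. In tissue pieces of this kind, fewer cells of a type and less RNA per cell cannot be told apart.

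D-type cyclins are the regulatory subunits that growth factor signals raise through the Ras and ERK pathway. They bind Cdk4 or Cdk6, and the kinase complex phosphorylates the retinoblastoma protein, which frees E2F factors to start DNA synthesis. MYC and MYCN are transcription factors of growth and division that bind the E-box DNA motif as dimers with MAX. MXD proteins compete for MAX and repress the same sites.

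Of the 9 genes, Ccnd2 was the 1 that passed the test, and it was lower in KO. No gene passed as higher in limma; at an unadjusted p below 0.05 there were 3 genes, Ccnd2 and Myc lower and Mycn higher, against 19.4% of all tested items. The test was limma's moderated model on background-corrected, quantile-normalized log2 intensities, with Benjamini-Hochberg adjustment over 13916 genes and unnamed probes, using the brightest probe of each gene. Across all of these, 2.41% passed in either direction, 1.59% as lower and 0.826% as higher in KO. The median log2 fold change, KO minus WT, was 0.12 over the 9 genes and -0.09 over all tested items. The median of the 9 turned to -0.60 with median scaling, -0.92 without scaling, -0.58 with the probe of largest interquartile range, -0.39 without KO replicate A and -0.17 without KO replicate B, so it gives no common direction. All KO values lay below all WT values for 4 of the 9 genes (Ccnd1, Ccnd2, Ccnd3 and Myc), against 17.2% of all tested items, and above them for Mycn alone, against 11.3%. No member gene passed when WT replicate A, B or C was left out, or with cyclic loess scaling. Without WT replicate A, B or C, 12, 19 and 28 of all 13916 tested items passed.

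**Figure D1:**
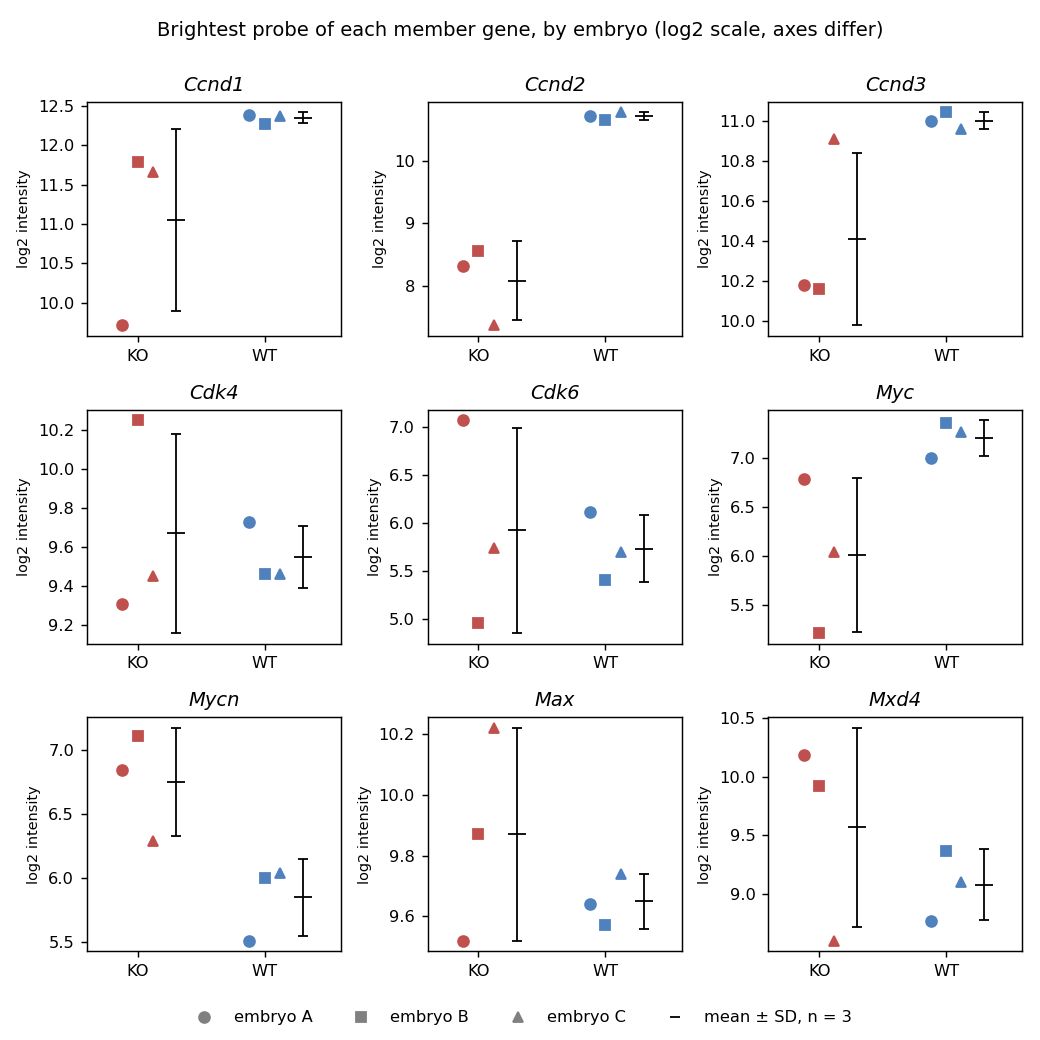
Log2 intensity of the brightest probe of each of the 9 genes in the 3 KO and 3 WT embryos (symbols mark embryos A, B and C, bars show mean ± SD, and vertical axes differ and do not start at 0). KO points lie below all WT points for Ccnd1, Ccnd2, Ccnd3 and Myc, above them for Mycn, and overlap them for the other genes.

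Ccnd2, the cyclin D2 gene, was read by 4 probes. The brightest, ILMN_2700166, stood at 8.32, 8.56 and 7.37 in KO embryos A, B and C, against 10.72, 10.65 and 10.77 in WT embryos A, B and C (log2 intensity). The groups were apart, and the KO values spread over 1.19 where the WT values spread over 0.12. The mean was 8.08 ± 0.63 in KO and 10.71 ± 0.06 in WT (SD, n = 3 each), a log2 fold change of -2.63 (SE 0.39, 95% interval -3.58 to -1.69), or 6.20-fold lower in KO, with a limma adjusted p = 0.033. On the raw scale the same probe gave bead signals of 331, 412 and 192 in KO and 2001, 1855 and 2181 in WT, so the gap was present before any scaling. A second probe of the same transcript, ILMN_2700168, read 6.93, 8.24 and 6.80 in KO and 10.08, 9.88 and 9.98 in WT. When each kept probe was tested on its own, its log2 fold change was -2.65 (limma adjusted p = 0.049), and that of ILMN_2700166 kept its value (adjusted p = 0.038). The remaining Ccnd2 probes are annotated to cDNA clones rather than to the reference transcript. ILMN_1225932 was detected on 1 KO and 3 WT arrays, with a log2 fold change of -1.91 (limma adjusted p = 0.20), and ILMN_1235724, detected on 1 WT array, was the probe that the filter removed. The Ccnd2 log2 fold change lay between -3.22 and -2.27 in 18 alternative settings. Of the 17 that do not block on the replicate letter, its call was lost with cyclic loess scaling (adjusted p = 0.053) and without WT replicate A (0.18), B (0.16) or C (0.17), where the log2 fold change was -2.63, -2.66 and -2.60. The call of ILMN_2700168 was lost in the same 4 settings and also without a filter (adjusted p = 0.056) and without KO replicate A (0.070) or C (0.066).

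Ccnd1, the cyclin D1 gene, was lower in every KO embryo than in any WT embryo by all 3 of its probes, and by 1 of them it passed. ILMN_1221503, the brightest, read 9.71, 11.79 and 11.66 in KO embryos A, B and C, against 12.39, 12.27 and 12.38 in WT embryos A, B and C (log2 intensity). KO embryo A was the lowest. KO embryos B and C also lay below the lowest WT embryo, by more than the WT range (KO range 2.07, WT range 0.12). The raw bead signal of KO embryo A was 792 with a bead standard error of 21.8, against 3286 (134) and 2632 (110) in KO embryos B and C. In WT embryos A, B and C the raw bead signal was 6312, 5736 and 6365. The log2 fold change was -1.30 (SE 0.60, 95% interval -2.75 to 0.16, limma adjusted p = 0.31), and without KO replicate A it was -0.63 (adjusted p = 0.22). ILMN_2601471 followed it, with 9.67, 11.50 and 11.54 in KO and 12.16, 11.94 and 12.20 in WT (log2 fold change -1.19, limma adjusted p = 0.33). ILMN_2669793, annotated to the same transcript, gave another picture: it was undetected on all 3 KO arrays and stood at 8.02, 8.30 and 8.21 in WT. By this probe Ccnd1 was at least 6.93-fold lower in KO, comparing the WT mean with a KO floor (on each array, the probe's signal or the dimmest detected signal, whichever is higher; limma adjusted p = 0.011 over 20853 kept probes). The probe met the detection filter only through its WT arrays, the group where it is high, so the call is not independent of the filter. That call held under 3 other scalings (adjusted p = 0.0029 to 0.015) and was lost without WT replicate A (0.11), B (0.093) or C (0.099). With each gene read by its probe of largest interquartile range instead of its brightest, Ccnd1 was read by this undetected probe and passed (adjusted p = 0.0091), its size being known there too only as that bound. The 3 probes thus disagree on size. In KO embryos B and C the reading is detected but below WT by the bright probes, and at background by the dim one.

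Ccnd3, the cyclin D3 gene, did not pass by any of its 3 probes. ILMN_3131063, the brightest, read 10.18, 10.16 and 10.91 in KO and 11.00, 11.04 and 10.96 in WT (log2 intensity). The groups did not overlap, but KO embryo C came close to the lowest WT embryo. Its log2 fold change was -0.58 (SE 0.32, 95% interval -1.37 to 0.20, limma adjusted p = 0.39), negative in all 18 alternatives. ILMN_2661849 and ILMN_1246473, annotated to another Ccnd3 transcript, overlapped between groups, with log2 fold changes of -0.04 and 0.19. Their signs depended on scaling: ILMN_2661849 stood at 0.24 with cyclic loess, and ILMN_1246473 at -0.81 with median scaling and -1.13 without scaling.

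**Figure D2:**
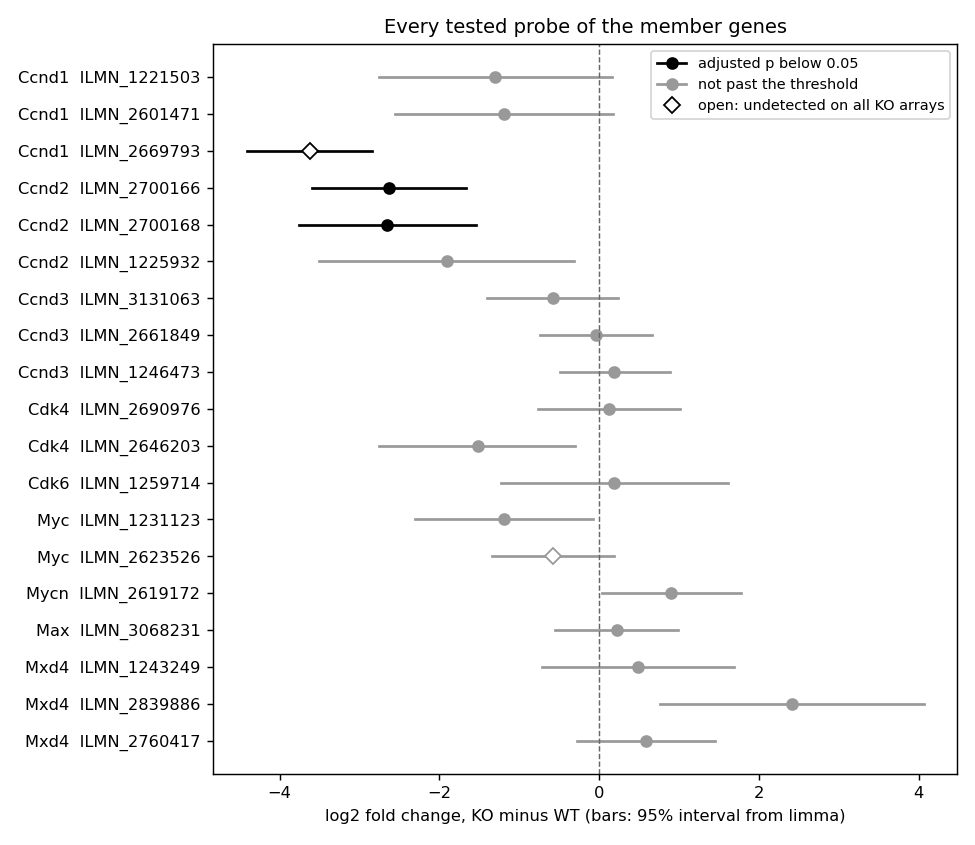
Log2 fold change, KO minus WT, of the 19 tested probes with the 95% interval from limma (points, with bars for the interval; black where the adjusted p over 20853 probes is below 0.05, open diamonds for probes undetected on all KO arrays). The 3 probes that passed belong to Ccnd1 and Ccnd2, and probes of Ccnd1, Cdk4 and Mxd4 lie apart from others of the same gene.

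Of the 19 kept probes, 3 passed as lower and 0 as higher, against 1.43% and 0.623% of the 20853 kept probes (2.06% in either direction). KO values lay below all WT values for 10 of the 19 and above them for 2, against 17.4% and 10.1% of all kept probes. Probes of 1 gene share their target and are not separate evidence of a change. ILMN_2669793 of Ccnd1, counted as lower, and ILMN_2623526 of Myc, which did not pass, met the detection filter through their WT arrays alone. Both are among the 10.

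The kinase genes showed no common direction. Cdk4, which encodes the cyclin D partner kinase, was read by 2 probes of the same transcript that disagree. ILMN_2690976, the brighter, gave 9.31, 10.25 and 9.45 in KO and 9.73, 9.46 and 9.46 in WT (log2 intensity). The groups overlap, with a log2 fold change of 0.12 (95% interval -0.74 to 0.98, limma adjusted p = 0.89) that turned to -0.03 with median scaling, -0.35 without scaling and -0.17 without KO replicate B. ILMN_2646203 gave 7.20, 5.49 and 6.85 in KO and 7.81, 8.18 and 8.11 in WT. Those groups did not overlap, and the log2 fold change was -1.52 (95% interval -2.75 to -0.30, limma adjusted p = 0.19). Cdk6, the alternative cyclin D kinase, was read by 1 dim probe, ILMN_1259714, detected on 2 KO and 3 WT arrays, at 7.07, 4.95 and 5.74 in KO and 6.11, 5.40 and 5.69 in WT. KO embryo A was above all WT embryos and KO embryo B below them. The log2 fold change was 0.19 (95% interval -1.23 to 1.61, limma adjusted p = 0.90), and it was -0.60 with median scaling, -0.92 without scaling and -0.39 without KO replicate A.

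Cdk4 is a textbook MYC target, and its promoter is shown because it carries the sites that MYC and MAX dimers recognise. The stretch holds the 250 bases before the annotated start, chr10:127063285-127063534 on the plus strand (RefSeq, GRCm38.p6), with each E-box, the letters CACGTG, in capitals.
Cdk4 promoter: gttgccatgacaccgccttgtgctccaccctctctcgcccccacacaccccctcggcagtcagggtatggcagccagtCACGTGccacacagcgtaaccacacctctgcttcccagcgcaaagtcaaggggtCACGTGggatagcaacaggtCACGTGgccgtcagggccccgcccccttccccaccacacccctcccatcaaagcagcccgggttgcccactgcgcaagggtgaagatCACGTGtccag
The E-boxes begin at positions -172, -118, -98 and -11 from the start. CACGTG reads the same on both strands and was counted once per position. It occurs in 7.15% of the 32851 promoter windows of 300 bases (250 before to 50 after the start) in the RefSeq table, and at least 4 times in 8 of them. The table holds promoters of 6 of the 9 genes. CACGTG was also found once each in the windows of Cdk6, Max and Mxd4, and not in those of Ccnd3 and Mycn.

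The MYC genes pointed in opposite directions after quantile normalization, and neither passed. Myc, the c-MYC gene, stood by its brighter probe ILMN_1231123 at 6.78, 5.22 and 6.04 in KO and 7.0, 7.35 and 7.26 in WT (log2 intensity), detected on 2 KO and 3 WT arrays. All KO embryos lay below WT, with embryo A closest to it. The mean was 6.01 ± 0.78 in KO and 7.20 ± 0.18 in WT (SD, n = 3 each), a log2 fold change of -1.19 (SE 0.45, 95% interval -2.29 to -0.09, limma adjusted p = 0.22). Without scaling between arrays it was -2.29 and passed (limma adjusted p = 0.022). In that setting 1981 of all 13916 tested items passed as lower in KO, and the median log2 fold change of all items was -0.81. The Myc log2 fold change was negative in all 17 alternatives that kept the gene. The lower reading of KO embryo B, 5.22, is under that array's lowest detected signal of 5.36, so the size is uncertain. Its other probe, ILMN_2623526, was undetected on all KO arrays and stood at 5.58, 5.17 and 5.15 in WT, too near the KO detection limit for a fold bound.

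Mycn, the N-MYC gene, was read by 1 probe, ILMN_2619172, at 6.84, 7.11 and 6.29 in KO and 5.51, 6.0 and 6.04 in WT (log2 intensity). The KO embryos were all above WT, with a log2 fold change of 0.90 (SE 0.35, 95% interval 0.06 to 1.74, limma adjusted p = 0.23). The raw bead signals did not show this: they were 156, 188 and 125 in KO and 159, 180 and 199 in WT, and the groups overlap. The log2 fold change was 0.01 with median scaling and -0.31 without scaling (adjusted p = 0.99 and 0.63), so the direction of Mycn rests on the scaling. The Mycn promoter is shown because it carries sites for E2F, the factor family that cyclin D kinases release. The stretch is chr12:12941837-12942086 on the minus strand (RefSeq, GRCm38.p6), the 250 bases before the start, written 5′ to 3′ along the gene, with E2F-type matches in capitals.
Mycn promoter: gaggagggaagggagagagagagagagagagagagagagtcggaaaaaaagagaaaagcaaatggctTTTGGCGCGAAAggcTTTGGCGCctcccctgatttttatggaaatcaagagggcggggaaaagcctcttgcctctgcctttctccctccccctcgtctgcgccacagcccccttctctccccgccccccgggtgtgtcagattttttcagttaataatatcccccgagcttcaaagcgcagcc
The letters searched on both strands were TTTCCCGC, TTTGGCGC, TTTCGCGC and TTTGCCGC. The 3 matches begin at -183, -179 and -168, and the first and the second overlap. Any of these letters occurs in 2.26% of the 32851 windows, and at least 3 matches in 4 of them.

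Max, the shared dimer partner, did not pass by its 1 probe: 9.52, 9.87 and 10.22 in KO and 9.64, 9.57 and 9.74 in WT (log2 intensity), with a log2 fold change of 0.22 (95% interval -0.52 to 0.95, limma adjusted p = 0.74) and -0.24 without scaling. The KO embryos lay on both sides of WT. Mxd4, a MAX-binding repressor, did not pass by any of 3 probes, which again differed in size. ILMN_1243249, the brightest, read 10.19, 9.92 and 8.60 in KO and 8.77, 9.37 and 9.10 in WT, a log2 fold change of 0.49 (95% interval -0.70 to 1.69, limma adjusted p = 0.64), which was -0.02 without scaling. ILMN_2839886 read 7.87, 9.27 and 8.04 in KO and 5.42, 7.28 and 5.26 in WT. By that probe KO lay above WT with no overlap, and embryo B was the high one in both groups. Its log2 fold change was 2.41 (95% interval 0.76 to 4.06, limma adjusted p = 0.14), and it stayed between 1.59 and 2.74 under 3 other scalings. ILMN_2760417 had a log2 fold change of 0.59 (limma adjusted p = 0.44), which was -0.20 with median scaling and -0.52 without scaling.

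**Figure D3:**
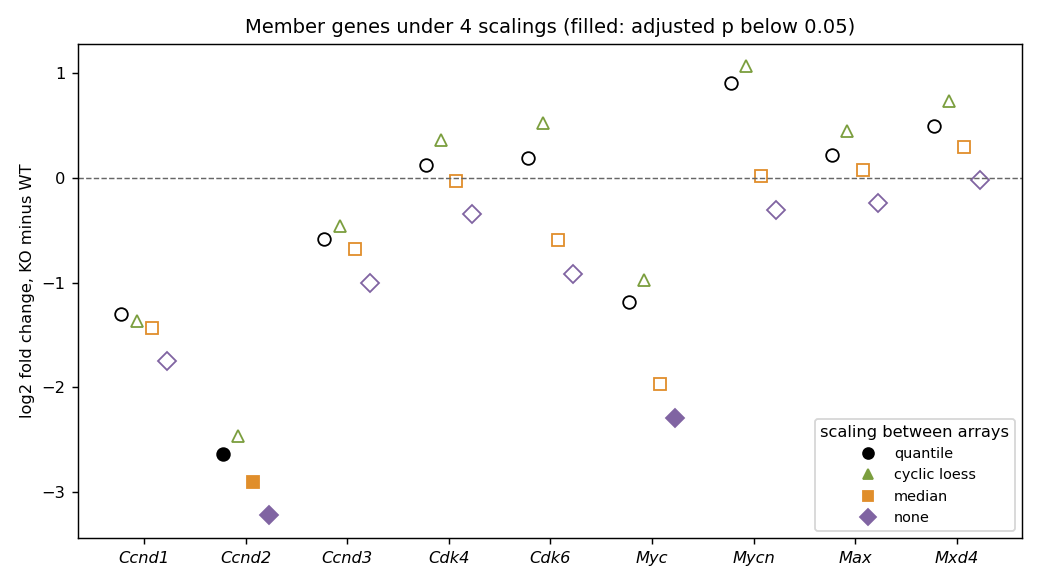
Log2 fold change, KO minus WT, of the 9 genes by their brightest probe under quantile, cyclic loess, median and no scaling between arrays (filled symbols have an adjusted p below 0.05). Ccnd1, Ccnd2, Ccnd3 and Myc are negative under all 4, while Cdk4, Cdk6, Mycn, Max and Mxd4 are negative under at least 1 scaling and positive under at least 1.

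The KO embryos varied more than the WT embryos for all 9 genes. The median SD of the 9 brightest probes was 0.63 in KO and 0.16 in WT (log2 scale), and over all tested items it was 0.80 in KO and 0.30 in WT. The extremes fell on all KO embryos: A, B and C each had the lowest KO value for 3 genes, and had the highest for 3, 4 and 2 genes. KO embryo A was lowest for Ccnd1, Cdk4 and Max, B for Ccnd3, Cdk6 and Myc, and C for Ccnd2, Mycn and Mxd4. The summed mesenchyme level was 6909, 4265 and 6283 in KO embryos A, B and C. The epithelial sum was 13967, 15822 and 15424 in them, against 18018, 16986 and 17393 in WT embryos A, B and C. Of the 11 epithelial markers, 0 passed in limma; KO values lay below all WT values for 5 and above them for 1, against 17.2% and 11.3% of all tested items. The 5 were the keratin genes Krt18 (log2 fold change -2.62), Krt8 (-1.90) and Krt15 (-1.22), the adhesion gene Epcam (-1.59) and the eye regulator Pax6 (-1.11), and the 1 was the basal keratin gene Krt5 (0.66), with adjusted p-values of 0.065 (Epcam) to 0.34 (Pax6). Cdh1, the epithelial cadherin, stood at 0.01 (95% interval -0.63 to 0.64, limma adjusted p = 0.99). The part of the epithelial markers in the changes of the cyclin and Myc genes was not tested.

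To ask whether related genes moved unequally, the difference of their log2 intensities on the same array was compared between groups for 6 pairs. The absolute difference between probes has no meaning of its own, and its change does. Ccnd2 minus Ccnd3 was -1.86, -1.60 and -3.54 in KO and -0.28, -0.39 and -0.18 in WT. The change was -2.05, Ccnd2 being lower against Ccnd3 in KO with no overlap. Mycn minus Myc was 0.06, 1.89 and 0.26 in KO and -1.5, -1.35 and -1.22 in WT, a change of 2.09 with no overlap. Both pairs reached p = 0.1 in the two-sided exact permutation test, the lowest value possible here, and 0.3 after adjustment over the 6 pairs. A shift of a whole array cancels in such a difference, so median scaling and no scaling give equal values by construction (-2.22 for Ccnd2 against Ccnd3 and 1.99 for Mycn against Myc). With cyclic loess, which can treat bright and dim probes unequally, the changes were -2.0 and 2.04. The Mycn minus Myc value of KO embryo B, 1.89, rests on a Myc reading of 5.22. That reading is under the lowest detected signal of its array, 5.36, so the size of this change is uncertain. Without background correction the log2 fold changes were 0.422 for Mycn and -0.585 for Myc, against 0.90 and -1.19 with it. Ccnd1 minus Ccnd2 (change 1.34) and Ccnd1 minus Ccnd3 (-0.71) overlapped, each with an exact permutation p = 0.4 and 0.6 after adjustment. Cdk6 minus Cdk4 (0.06) and Mxd4 minus Max (0.27) overlapped too, with exact permutation p = 0.9 and 0.8. So a difference in response between Ccnd1 and Ccnd2, of which 1 passed and the other did not by the brightest probe, was not shown by this comparison.

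**Figure D4:**
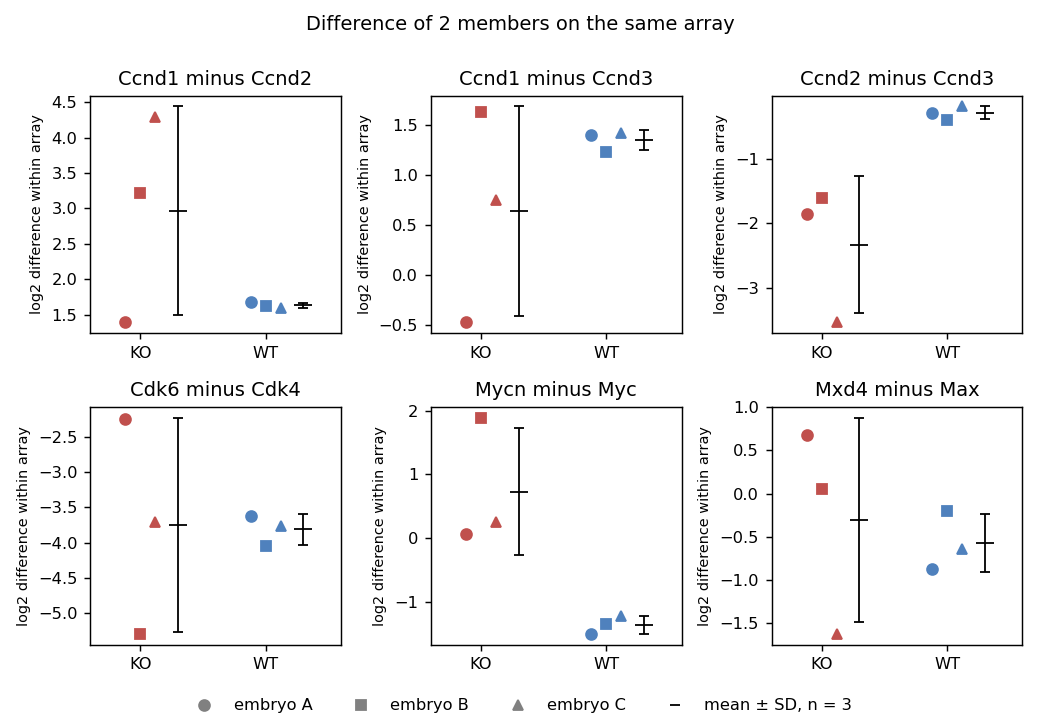
Difference of the log2 intensities of 2 genes on the same array, for 6 pairs, in 3 KO and 3 WT embryos (symbols mark embryos A, B and C, bars show mean ± SD). KO and WT do not overlap for Ccnd2 minus Ccnd3 and for Mycn minus Myc, and overlap in the other 4 panels.

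Genes around the 9 in the same pathway gave few calls. Of 22 tested CDK4/6 axis partners, covering retinoblastoma proteins, E2F factors, E cyclins and CDK inhibitors, 0 passed in limma, with 1 at an unadjusted p below 0.05 (against 2.41% and 19.4% of all tested items), and the median log2 fold change was -0.23. That median has no settled sign: it was 0.05 with cyclic loess, 0.039 without KO replicate A, 0.068 without KO replicate C, -0.51 without KO replicate B and -0.91 without scaling. The smallest p-values were those of Cdc37, a chaperone partner of kinases that include CDK4, and E2f3. Cdc37 was at least 1.80-fold lower in KO (limma adjusted p = 0.13), its probe having no detected signal in KO and meeting the filter through WT alone. E2f3, a factor freed by retinoblastoma phosphorylation, stood at 6.95, 8.95 and 8.18 in KO and 8.96, 9.22 and 8.99 in WT (log2 fold change -1.03, adjusted p = 0.36). KO values lay below all WT values for 3 of the 22 and above them for 1, shares no greater than the 17.2% and 11.3% of all tested items.

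Of 19 tested S phase genes that E2F factors drive, 0 passed, with 3 lower and 1 higher in KO at an unadjusted p below 0.05, against 11.9% lower and 7.51% higher of all tested items. The median was -0.47, against -0.09 over all tested items. KO values lay below all WT values for 9 of the 19 and above them for 1, against 17.2% and 11.3% of all tested items. Mcm3, a subunit of the replicative helicase, was at least 2.82-fold lower in KO (limma adjusted p = 0.054), and Mybl2, a cell cycle transcription factor, at least 3.57-fold lower (adjusted p = 0.068). Neither probe gave a detected signal on a KO array, so both met the detection filter through WT alone. Other helicase subunits were less apart, with log2 fold changes of -0.85 for Mcm2, -0.88 for Mcm7, -0.47 for Mcm4, -0.40 for Mcm6 and -0.33 for Mcm5. Rrm2, a ribonucleotide reductase subunit, stood at 0.70 (limma adjusted p = 0.25).

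Of 12 tested mitosis genes, 0 passed, with 2 at an unadjusted p below 0.05 (19.4% of all tested items) and a median of -0.01, which was 0.20 without KO replicate C and -0.78 without scaling. The 2 were the mitotic kinases Aurka, at 8.36, 6.72 and 6.91 in KO and 9.30, 9.23 and 9.41 in WT (log2 fold change -1.98, limma adjusted p = 0.10), and Plk1, at 8.85, 7.13 and 8.46 in KO and 10.47, 9.99 and 10.00 in WT (-2.01, adjusted p = 0.11). For both, all KO embryos lay below WT. Top2a and Cdk1, also of that list, stood at 0.25 and 0.28.

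Of 24 tested MYC target growth genes, 0 passed, with 2 at an unadjusted p below 0.05, a smaller share than the 19.4% of all tested items, and a median of -0.47. Bop1, a ribosome assembly factor, read 5.36, 6.11 and 5.79 in KO and 7.23, 7.5 and 7.14 in WT (log2 fold change -1.53, limma adjusted p = 0.073). Npm1, a nucleolar chaperone, read 10.67, 10.89 and 10.86 in KO and 11.81, 11.92 and 11.79 in WT (-1.03, adjusted p = 0.11). Of the 6 other tested genes of the MYC and MAX network, 0 passed, also at an unadjusted p below 0.05, and the median was -0.02, which was 0.21 without WT replicate A and -0.46 without KO replicate B. Mxi1, a MAX-binding repressor, stood at -0.70 (limma adjusted p = 0.57) and Mycl, the L-MYC gene, at -0.42 (0.80).

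Of 8 tested genes that act on the stability of D cyclins or MYC, Cryab was higher in KO, 0 passed as lower, and the median was -0.28. That median turned to 0.38 without KO replicate A, 0.15 without KO replicate B, 0.10 without WT replicate B and 0.28 with cyclic loess, and was -0.90 without KO replicate C. Cryab encodes a small heat shock protein that works with an F-box protein on cyclin D1 and is also a lens crystallin. It read 7.24, 7.14 and 7.11 in KO and 5.34, 5.26 and 4.98 in WT, a log2 fold change of 1.97 (limma adjusted p = 0.029). Without Cryab, the summed intensity of the 6 other lens markers on the array was 153, 547 and 408 in KO embryos A, B and C, against 313, 222 and 320 in WT embryos A, B and C, and the groups overlap. Most of the KO embryo B sum was Prox1, a lens and lymphatic regulator: without it the sum was 115 there. The lens crystallin genes Cryaa and Crybb1 were undetected on all 6 arrays and Mip, a lens membrane channel, on all KO arrays and 1 WT array. Cryba1 and Prox1 were detected on 1 KO and 3 WT arrays each, and Crygb on 2 KO and 2 WT arrays. The part of lens tissue in the Cryab reading was not tested. The counts of these lists moved with scaling: of their 91 tested genes 1 passed, against 6 with median scaling, of which 5 were lower in KO, and 11 without scaling, all lower in KO. The count over all 13916 tested items moved too, from 336 to 1068 with median scaling (963 lower) and 2068 without scaling (1981 lower). In the lists, leaving out KO replicate A or B gave 2 and 4 calls, against 540 and 563 of all tested items. Leaving out any 1 WT replicate gave 0 list calls, against 12 to 28 of all tested items.

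**Figure D5:**
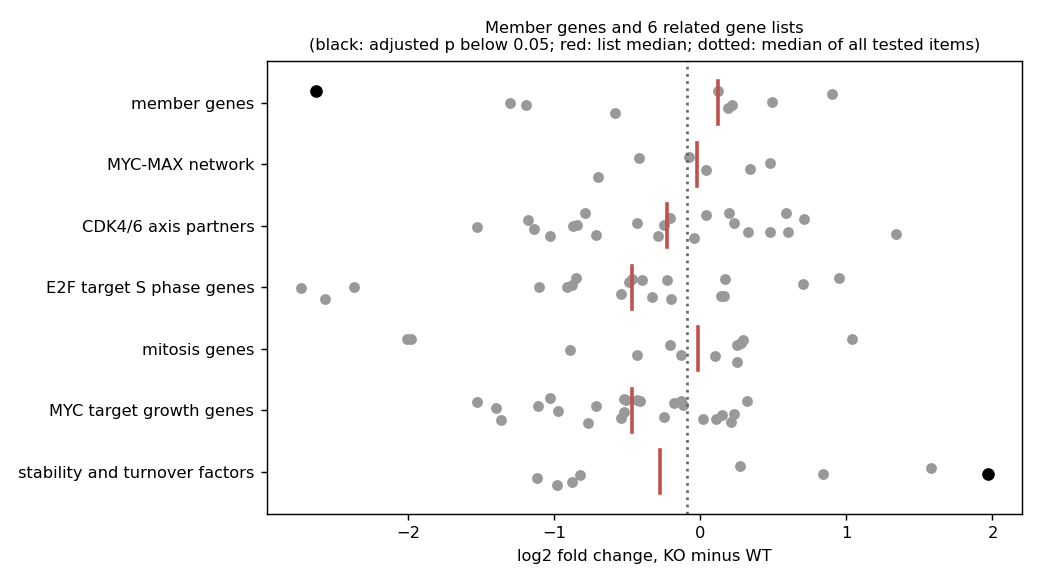
Log2 fold change, KO minus WT, of the 9 genes and of the tested genes of 6 related lists (each point a gene, black where the adjusted p is below 0.05, red bars for the median, dotted line for the median of all tested items at -0.09). The black points are Ccnd2 and Cryab, and the medians of the E2F target and MYC target lists are both -0.47.

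The genes whose pattern over the 6 arrays was most like that of Ccnd1 and of Myc, the D-type cyclin and the MYC gene with the brightest probes, were looked up among 10096 tested genes with plain symbols, as a description with no test. For Ccnd1 they were Pbrm1, a chromatin remodelling subunit (Pearson r = 0.998), Cgnl1, a cell junction protein (0.997), and Zbtb33 (0.996). Cgnl1 read 5.99, 9.23 and 8.79 in KO and 10.09, 10.09 and 10.19 in WT, so KO embryo A was the lowest, as for Ccnd1. For Myc they were Myb, a transcription factor gene (r = 0.995), Gart, a purine synthesis enzyme (0.992), and Foxp4 (0.991). Myb read 7.72, 5.54 and 6.82 in KO and 8.35, 8.89 and 8.82 in WT, and KO embryo B was the lowest, as for Myc. With 6 arrays in 2 groups, such values share the group difference and the array, and were the highest of many.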

How the data were processed

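The authors deposited scanner intensity values (average bead signal, not normalized), bead numbers, bead standard errors and detection p-values, per the file headers. GenomeStudio is named in the submitters' processing notes, without a version. The authors' deposited processed intensity values (array medians near 9, method not given in the sources used here) were used as an alternative. Values under 16 were raised to 16 before the log2 transform, so differences below that floor were not seen in this alternative.

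Intensities were background-corrected from the detection p-values, given an offset of 16, quantile-normalized and log2-transformed with limma's neqc (limma 3.58.1, R 4.3.3). Symbols came from the platform annotation, updated through gene identifiers: 34885 probes had 1 symbol. KO was compared with WT with lmFit and eBayes, genotype being the sole term, at an adjusted p below 0.05. The fit was tested on simulated data that gave both groups the WT spread, so it was not tested at the larger KO spread. Figures used matplotlib 3.10.9.

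Per the labels' protocols, RNA (15 ng) from 10 µm laser-dissected sections of 1 embryo was amplified for each array. The number of arrays limits the precision. Each member probe is named. Of each list the called genes, at most 4, are named, or else the 2 with the smallest p, and the 3 genes most like Ccnd1 and Myc. The other Mcm genes, Rrm2, Top2a, Cdk1 and the cell type markers named singly were chosen after their values were seen. Members and lists were chosen with earlier results of these data known. Same-lettered KO and WT arrays did not deviate together (r = -0.029, -0.004 and -0.005 for A, B and C).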

Additional observations from a re-analysis of the deposited data

How the results depend on the processing

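The scaling, left-out-array and block settings of single probes, and the settings of the median of the 9 genes, were chosen after seeing the data, and the cause of a change was not tested unless given. The count of 336 called items (115 higher, 221 lower in KO; 65.8% lower) became 1068 with median scaling (963 lower), 2068 without scaling (1981 lower), 660 without a filter, 189 with detection p below 0.01 on all 6 arrays, where fewer items were tested, 185 with array weights and 0 with the replicate block, which leaves fewer residual degrees of freedom. With cyclic loess 127 of 245 calls were lower. Leaving out 1 KO array gave 540 to 563 calls, and leaving out 1 WT array gave 12 to 28. The median of all tested items, -0.09, was -0.49 with median scaling, 0.09 with cyclic loess, -0.81 without scaling and 0.06 without a filter.

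The count of 1 called member gene became 0 with cyclic loess and 0 with the replicate block, where Ccnd2 had an adjusted p = 0.18 (13 of 18 alternatives kept its call), and 2 without scaling and 2 with the probe of largest interquartile range; leaving out 1 array gave 0 to 1. The count of 3 called probes became 1 with cyclic loess, 8 without scaling and 0 with the replicate block (adjusted p = 0.15 for ILMN_2669793, 0.18 for ILMN_2700166 and 0.20 for ILMN_2700168); leaving out 1 array gave 0 to 3. The count of 1 called list gene became 6 with median scaling, 11 without scaling and 0 with the replicate block; leaving out 1 array gave 0 to 4. The letters A, B and C mark no shared litter in the labels, and the block is given for completeness.

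Signs of single genes, probes and pairs turned as follows, and those of list medians are given beside them above. With median scaling Cdk4 was -0.03, Cdk6 -0.60, Cdk6 minus Cdk4 -0.57, ILMN_1246473 -0.81 and ILMN_2760417 -0.20. Without scaling Cdk4 was -0.35, Cdk6 -0.92, Cdk6 minus Cdk4 -0.57, Max -0.24, Mxd4 -0.022 (its probe ILMN_1243249), Mycn -0.31, ILMN_1246473 -1.13 and ILMN_2760417 -0.52. With cyclic loess ILMN_2661849 was 0.24. With the probe of largest interquartile range Cdk4 was -1.52, and leaving out 1 array took it from -0.17 (without KO replicate B) to 0.31 (without KO replicate A) and Cdk6 from -0.39 (without KO replicate A) to 0.67 (without KO replicate B). Ccnd1, Ccnd2, Ccnd3 and Myc were negative in each setting that kept them. Background correction, offset, variance model and the authors' processed values changed no call among the 9 genes. Genes undetected on KO arrays have a bound only, which limits Mcm3, Mybl2, Cdc37 and the dim probe of Ccnd1. The dim probe of Myc has none. Each of these probes met the detection filter through its WT arrays alone.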
